A study of Mus musculus with 6 samples.

Results

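The genes described here supply and use the reducing power of the cell: glutathione and its enzymes, thioredoxins and peroxiredoxins, the enzymes that make NADPH, and the enzymes that remove superoxide and hydrogen peroxide. They were taken by symbol among protein-coding genes, which gave 64 members of the 49671 genes counted. Their expression was measured by strand-specific sequencing of total RNA from embryonic mouse pancreata (strain C57BL/6J, 14.5 dpc). The 3 control libraries and the 3 libraries treated with AMI-5 at 10 µM share strain, stage and tissue. AMI-5 inhibits protein methyltransferases, those that act on arginine included, and the study asks how it acts on the differentiating pancreas. The labels leave culture and treatment to publications that were not used here, and they name no genetic change. They do not say whether libraries of one group came from different cultures or animals, so a p-value here covers the spread between these samples only, which may be technical. The labels also give an older version of the library kit for samples marked A. Control titles carry an A and AMI-5 titles an Am, so that on a literal reading the kit coincides with the treatment and they cannot be told apart.

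Glutathione is a tripeptide built by glutamate-cysteine ligase (Gclc and Gclm) and glutathione synthetase (Gss) and kept reduced by glutathione reductase (Gsr). Glutathione S-transferases attach it to reactive compounds, and glutathione peroxidases use it to reduce peroxides. Thioredoxins reduce protein disulfides and serve the peroxiredoxins, and both systems draw on NADPH, much of it from the pentose phosphate pathway. The transcription factor Nfe2l2 (NRF2), held down by Keap1, induces many of these genes when electrophiles or oxidants modify Keap1.

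Libraries held 12445425 to 13321899 gene counts in controls and 22894312 to 24805188 with AMI-5, which gives genes of low count a smaller counting error in the treated group. Acinar and endocrine markers of the pancreas were detected in all 6 libraries. Summed over 10 acinar markers, CPM (counts scaled to the TMM-adjusted library size) was 42766 to 57480 in controls and 89437 to 113551 with AMI-5, and 7 of the 10 were higher and 0 lower. Of 10 endocrine markers 1 was higher and 5 lower, and likewise of 10 duct and trunk markers 1 was higher and 5 lower. Their sums overlapped between the groups. The endocrine sum was 4331 to 4981 CPM in controls and 4592 to 5963 CPM with AMI-5. The duct and trunk sum was 2987 to 3254 CPM and 3059 to 3310 CPM. AMI-5 library 2 stood apart by liver transcripts. The 10 hepatocyte markers summed to 1691 CPM there, against 262 to 503 CPM in the other 5 libraries, and albumin (Alb) had 13384 reads there against 138 to 417. Processed pseudogenes took 0.427% to 0.448% of reads in controls and 3.14% to 3.40% with AMI-5. In bulk tissue, fewer cells of a type and less RNA per cell cannot be told apart.

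Members were found on both sides of the comparison. Of the 58 that passed the filter on low counts, 13 were higher and 21 lower after AMI-5, and 24 did not pass (quasi-likelihood test of edgeR, threshold 0.05 on the Benjamini-Hochberg adjusted p). That is 22.4% higher and 36.2% lower. Among all 17519 genes tested, 27.5% were higher and 26.6% lower (54.1% in either direction). Among protein-coding genes the shares were 20.1% and 30.6% (50.8% either way), and among those sharing less than 5% of their 50-mers (sequences of 50 bases) with other genes, 19.1% and 30.9%. Processed pseudogenes differed from these, with 93.1% higher and 1.93% lower. The members' median log2 fold change was -0.038, beside -0.0013 for all genes tested. It was -0.060 for protein-coding genes, the class of the members, and -0.065 for those with little shared sequence. Control and AMI-5 libraries did not overlap in 39 of the 58 members, as in 61.9% of all genes tested, 59.3% of protein-coding genes, 58.6% of those with little shared sequence and 95.9% of processed pseudogenes. With libraries scaled by their totals alone, 9 members were higher and 25 lower. When all genes, pseudogenes among them, served to remove trends with GC content and length, 5 were higher and 32 lower. Without AMI-5 library 2, 17 members were higher and 16 lower. Of the 43 tested members with under 5% of their 50-mers shared, 10 were higher and 13 lower (23.3% and 30.2%). The 6 members that did not pass the filter were Gpx5, Gpx6, Gsta1, Gsta2, Gstp3 and Gstt4.

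**Figure D1:**
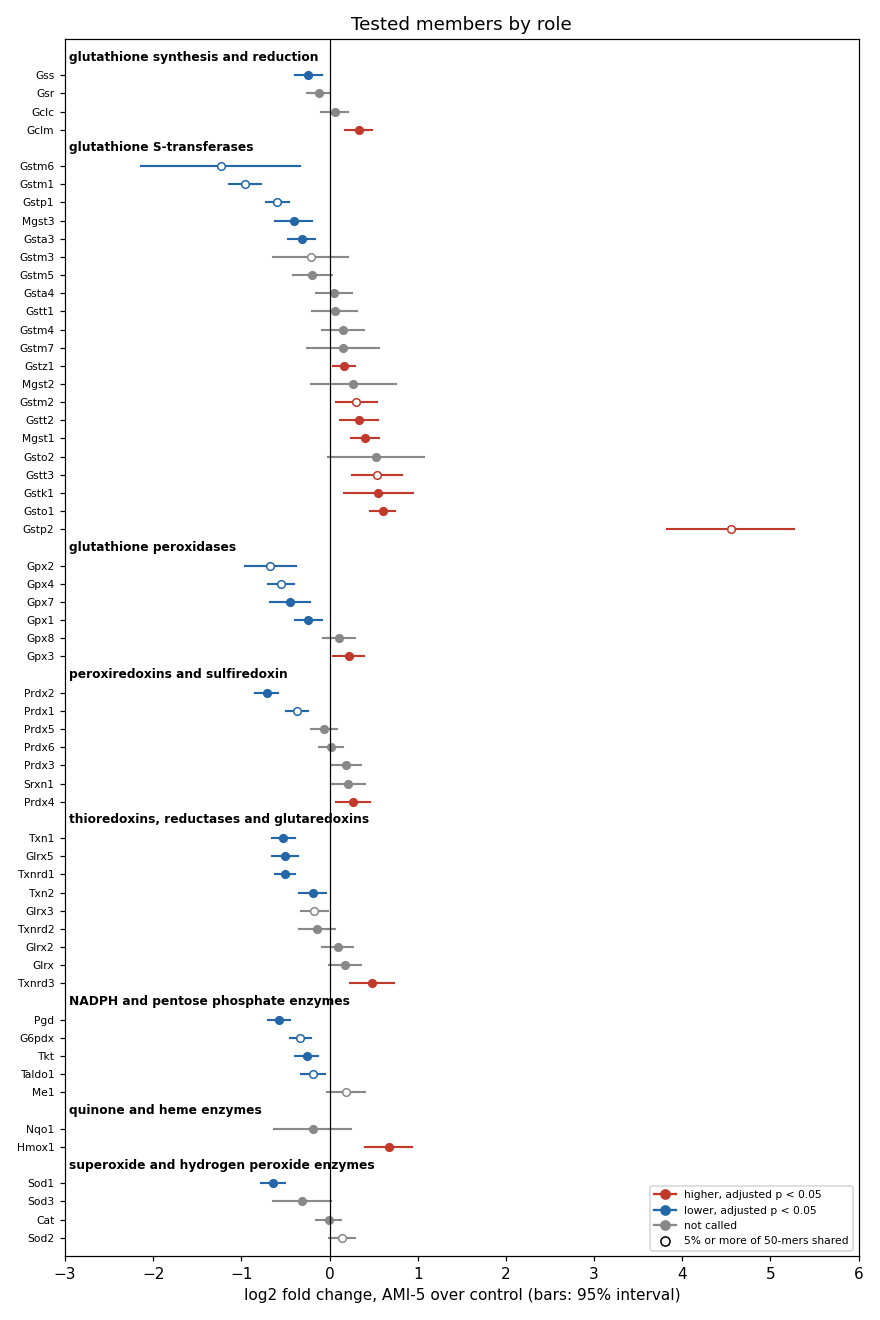
Log2 fold change (AMI-5 over control, x axis) of the 58 tested members, grouped by role, with 95% intervals; red members were higher, blue lower and grey not called, and open circles mark members with at least 5% of their 50-base sequences in another annotated gene. Most members lie within 1 log2 unit of 0, all 4 pentose phosphate enzymes lie below 0, and Gstp2 stands alone at 4.55.

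Several members have near-identical copies elsewhere in the genome, and for some of these the direction depended on whether reads of the copies were counted with the gene. Gstp1, a pi-class transferase, has a neighbour, Gstp2, and a processed pseudogene, Gstp-ps. Over the 630 coding bases of Gstp1, Gstp2 was 98.1% identical and Gstp-ps 97.6% identical, and the longest stretch shared without a difference was 300 bases for each. Gstp-ps was closer to Gstp2, with 623 of 628 aligned bases identical (99.2%) and a longest shared stretch of 339 bases. Gpx4, a peroxidase of membrane lipid peroxides, has the pseudogene Gpx4-ps2, which matched 507 of 509 aligned bases. The stretches of 60 coding bases within an exon that hold the most differences are shown because reads there can tell the gene from its copies. Other differences lie outside these stretches. Capitals mark bases that differ from the first sequence of each set, and sequences are from GENCODE M21 transcripts, 5′ to 3′ on the transcribed strand, with mm10 positions. The Gpx4 stretch holds the in-frame tga codon that is read as selenocysteine.
Gstp1 (chr19:4036694-4036753, minus strand): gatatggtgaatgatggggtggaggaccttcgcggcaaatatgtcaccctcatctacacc
Gstp2 (chr19:4040988-4041047, minus strand): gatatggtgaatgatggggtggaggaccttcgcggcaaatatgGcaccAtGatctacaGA
Gstp-ps (chr1:192074123-192074182, minus strand): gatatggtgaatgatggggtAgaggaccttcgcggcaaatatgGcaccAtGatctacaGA
Gpx4 (chr10:80054700-80054759, plus strand): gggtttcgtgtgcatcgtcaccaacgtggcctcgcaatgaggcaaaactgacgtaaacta
Gpx4-ps2 (chr10:45875431-45875490, plus strand): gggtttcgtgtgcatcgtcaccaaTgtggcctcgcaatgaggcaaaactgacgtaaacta

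After AMI-5 a larger share of the reads was given to the copies. Of the reads given to Gstp1, Gstp2 and Gstp-ps together, Gstp-ps held 3.28%, 2.23% and 3.74% in the 3 control libraries and 50.9%, 53.6% and 52.6% in the 3 AMI-5 libraries. Gpx4-ps2 held 20.7%, 19.7% and 20.8% of the Gpx4 reads in controls and 69.3%, 67.8% and 66.3% with AMI-5. The exact binomial 95% intervals of these shares, which cover counting error only, reached at most 23.7% in controls and at least 49.1% with AMI-5. The share in copies was higher in every AMI-5 library than in any control library for 10 of the 12 groups of members and copies. This was not particular to these copies. Of all processed pseudogenes tested, 93.1% were higher with AMI-5, and in 95.9% the groups did not overlap. The remaining groups could hardly show a shift. Gsta1 with Gsta2 has no pseudogene copy, and the copy of Gstm2 had 1 read, in AMI-5 library 3. The share went from 11.8% to 13.7% up to 62.7% to 65.0% for Glrx3, and from 0.535% to 1.02% up to 33.5% to 34.1% for Prdx1. For Sod1 it went from 4.01% to 6.10% up to 32.2% to 33.2%. The shares for Txn1 were lower, at 0.621% to 0.874% in controls and 6.95% to 7.98% with AMI-5. How reads that fit several places were counted is not given in the sources used here, and its part in this shift was not tested. If the kit follows the treatment, as on the literal reading of the labels, kit and treatment cannot be told apart here either.

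**Figure D2:**
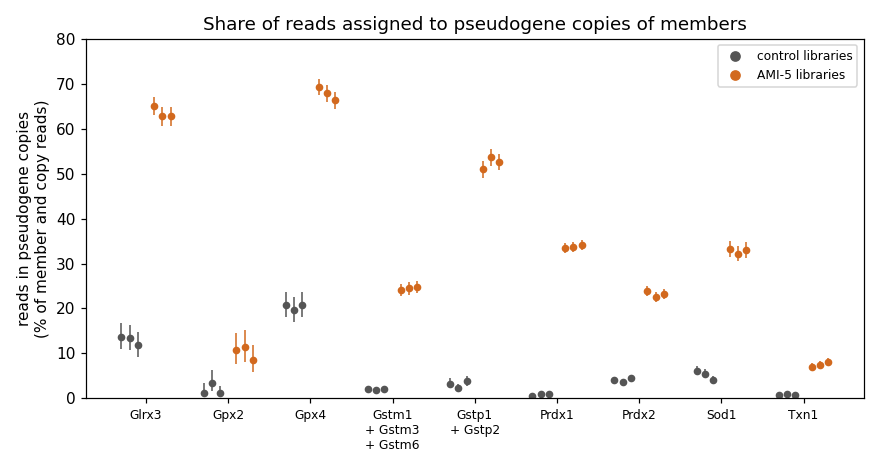
Percent of reads given to pseudogene copies, out of the reads of members and copies together, in each library for 9 groups of members (bars: exact binomial 95% intervals). The AMI-5 libraries lie above the controls in each of these groups, from 6.95% to 7.98% for Txn1 up to 66.3% to 69.3% for Gpx4.

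Adding the reads of the copies to those of the gene turned the sign for Gstp1, Gpx4, Prdx1 and Glrx3. Gstp1 alone was at 84.2, 82.5 and 77.9 CPM in control and 54.7, 51.8 and 55.6 CPM after AMI-5, or -0.59 in log2 terms (SE 0.059, adjusted p = 5.26e-06). Together with Gstp2 and Gstp-ps it was at 84.4 ± 3.22 CPM in control and 129 ± 3.27 CPM after AMI-5 (SD, n = 3), or 0.61 in log2 terms (SE 0.057, adjusted p = 2.93e-06 in edgeR). So the control libraries were above the AMI-5 libraries for Gstp1 alone and below them for the sum. The sum describes Gstp1 and Gstp2 together, and which of them the Gstp-ps reads came from, if either, was not tested. Gpx4 alone went from 52.8, 48.0 and 48.0 CPM to 34.2, 32.8 and 34.7 CPM (log2 fold change -0.55, SE 0.066), and with Gpx4-ps2 from 62.3 ± 3.73 to 106 ± 5.16 CPM (0.76, SE 0.064). Prdx1, a peroxiredoxin of the cytosol, was at -0.36 alone and at 0.22 with its 2 copies (adjusted p = 0.00602 in edgeR). Glrx3, a glutaredoxin that serves iron-sulfur proteins, was at -0.17 alone (adjusted p = 0.0532) and at 1.08 with Gm12669. Summing was chosen after seeing the data and counts every read of a pseudogene as one of the gene.

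**Figure D3:**
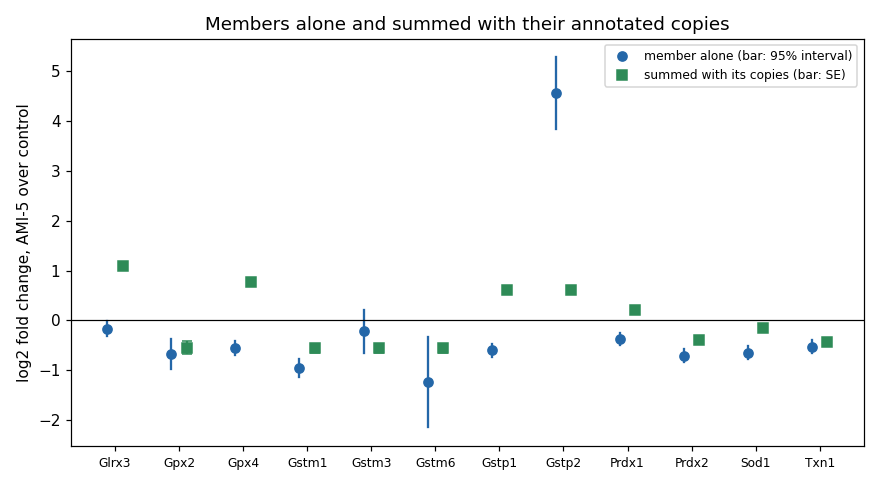
Log2 fold change (AMI-5 over control) of each member alone (circles, 95% interval) and of its reads summed with those of its annotated copies (squares, SE). Glrx3, Gpx4, Gstp1 and Prdx1 lie below 0 alone and above 0 summed, whereas Gstm1, Gpx2, Prdx2 and Txn1 lie below 0 both ways.

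The 4 genes of glutathione synthesis and reduction moved by small steps, 1 up and 1 down among them past the test. That is 25% each way, beside 20.1% higher and 30.6% lower among protein-coding genes tested. Gclm, the modifier subunit of glutamate-cysteine ligase (chromosome 3, 122245557 to 122270732, mm10), was at 41.8, 37.9 and 45.0 CPM in control and 51.7, 53.1 and 52.0 CPM after AMI-5. All 3 AMI-5 libraries were above all controls, at a log2 change of 0.33 (SE 0.069, adjusted p = 0.00164). That call ended when trends with GC content and length were removed, at 0.16 over unique-sequence genes (protein-coding, with under 5% of their 50-mers shared) and 0.027 over all genes. Gclc, the catalytic subunit, was at 31.4, 32.7 and 29.6 CPM in control and 33.4, 31.9 and 32.3 CPM after AMI-5, and the groups overlapped (log2 fold change 0.058, 95% interval -0.10 to 0.21). Gss, which adds glycine in the last step, was at 31.7, 34.2 and 33.5 CPM in control and 28.6, 28.02 and 27.5 CPM after AMI-5. It was lower, at a log2 fold change of -0.24 (adjusted p = 0.0123), a call that ended in 5 of 18 alternatives, among them without AMI-5 library 2 (-0.21, adjusted p = 0.0547) or library 3 (-0.21, adjusted p = 0.0675). Gsr was at 92.4, 84.5 and 93.4 CPM in control and 83.6, 83.6 and 80.8 CPM after AMI-5, and did not pass (-0.12, adjusted p = 0.0963). Without control library 2 it passed, at -0.17 (adjusted p = 0.0434).

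Of 9 members widely used as NRF2 targets, 2 were higher (Gclm and Hmox1), 2 lower (Txnrd1 and G6pdx) and 5 did not pass. The shares among protein-coding genes tested were 20.1% higher and 30.6% lower. Hmox1, the inducible heme oxygenase that breaks heme down to biliverdin, iron and carbon monoxide (ENSMUSG00000005413, chromosome 8, 75093621 to 75100589, mm10), was at 27.7, 31.4 and 38.2 CPM in control and 45.5, 54.5 and 55.1 CPM after AMI-5. The groups did not overlap, and the rise was 1.59-fold (log2 change 0.67; SE 0.12; adjusted p = 0.00105). It kept the call with GC and length trends removed over unique-sequence genes (0.72) and lost it with trends removed over all genes (0.15). Macrophages and red cell precursors handle heme, and their summed markers were also higher in the AMI-5 libraries. Within neither group did either sum rank the libraries as Hmox1 did. The order of 3 libraries within a group cannot speak to the difference between the groups. The 10 macrophage and leukocyte markers summed to 335 to 352 CPM in control and 427 to 504 CPM after AMI-5, with 6 higher and 0 lower. The 9 erythroid markers of the table summed to 16.3 to 39.3 CPM in control and 81.2 to 244 CPM after AMI-5, with 5 higher and 2 lower of 7 tested. The 244 CPM was in AMI-5 library 2, where liver markers were high, beside 95.7 and 81.2 CPM in AMI-5 libraries 1 and 3. No marker of either list was at 0 in all 6 libraries, and their part in the Hmox1 value was not tested.

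Txnrd1, the cytosolic thioredoxin reductase and a selenoprotein (ENSMUSG00000020250, chromosome 10, 82859206 to 82897724, mm10), was at 258, 249 and 257 CPM in control and 177, 176 and 185 CPM after AMI-5. The groups lay far apart beside their spread, at a log2 change of -0.51 (SE 0.053, adjusted p = 7.48e-06), and the gene shares no 50-mer with another. Nqo1, a quinone reductase widely used as a marker of NRF2 activity, was low, with 50 to 67 reads per control library and 73 to 97 per AMI-5 library. It was at 3.95, 3.64 and 5.08 CPM in control and 4.35, 3.65 and 3.08 CPM after AMI-5, and the groups overlapped (-0.19, 95% interval -0.63 to 0.24). In 1 of 18 alternatives, trends removed over all genes, it passed as lower, at -1.21. Srxn1, the sulfiredoxin that restores overoxidized peroxiredoxins, was at 29.1, 26.9 and 31.0 CPM in control and 32.2, 31.4 and 37.0 CPM after AMI-5. Its groups did not overlap, but it stayed just short of the threshold (0.21, adjusted p = 0.0588). It passed in 11 of 18 alternatives, without AMI-5 library 2 (0.28, adjusted p = 0.0262) and without control library 3 (0.26, adjusted p = 0.0439) among them. Me1, the cytosolic malic enzyme that makes NADPH from malate, was at 33.1, 27.7 and 28.1 CPM in control and 32.3, 37.8 and 30.9 CPM after AMI-5. It did not pass (0.18, adjusted p = 0.131) except without control library 1 (0.27, adjusted p = 0.0483), and it shares 22.9% of its 50-mers with other genes.

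**Figure D4:**
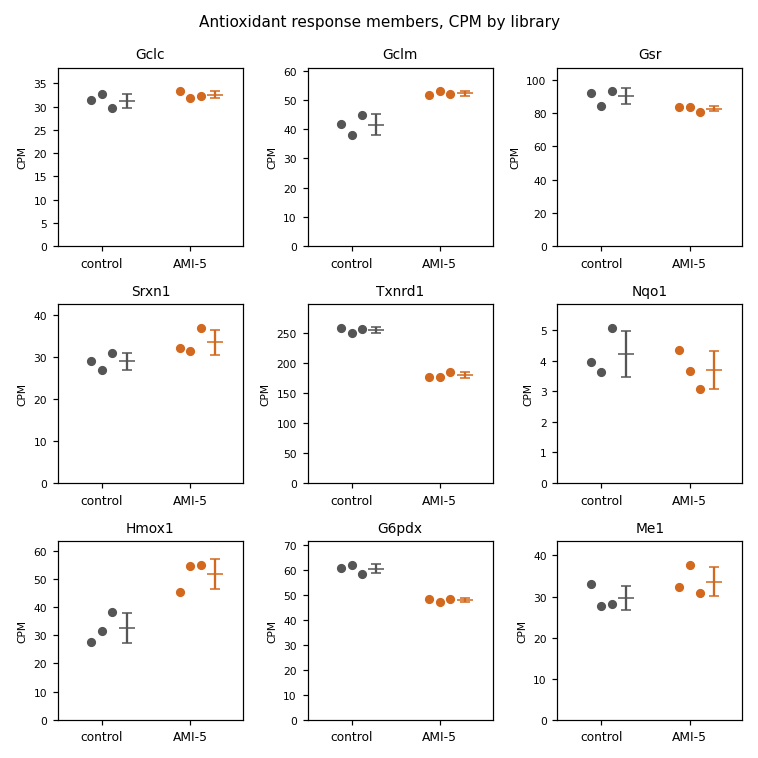
CPM (y axis, from 0) of the 9 classical antioxidant response members in each control (grey) and AMI-5 (orange) library, with mean and SD (n = 3) beside the points. Gclm and Hmox1 were higher with AMI-5, Txnrd1 and G6pdx lower, and Gclc, Nqo1 and Me1 overlapped between the groups.

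Neither NRF2 nor its inhibitor passed the test at the RNA level. Nfe2l2 was at 102, 104 and 109 CPM in control and 117, 115 and 112 CPM after AMI-5, a log2 fold change of 0.13 that did not pass (adjusted p = 0.0693). Keap1 was at 88.0, 83.2 and 80.2 CPM in control and 73.6, 72.9 and 79.6 CPM after AMI-5 (-0.15, adjusted p = 0.0545). In both genes the groups lay close without overlapping. Of 10 genes of the control machinery, 2 were higher and 2 lower. For this list and those below, the shares among protein-coding genes tested were 20.1% higher and 30.6% lower. Cul3, the scaffold of the ligase that marks NRF2 for degradation, had a log2 fold change of 0.46, its RING partner Rbx1 of -0.25, and the small Maf partner Mafg of -0.28. Of 20 other tested genes of the antioxidant response, 6 were higher and 2 lower (median log2 change 0.14). Slc3a2, the heavy chain of several amino acid exchangers, was at 0.63, and Ugdh, which makes UDP-glucuronate, at 0.58. Ftl1, the ferritin light chain, was at -1.11, and 50.9% of its 50-mers lie in other genes. Slc7a11, the cystine importer that pairs with Slc3a2 and feeds glutathione synthesis, went from 5.50, 6.78 and 4.17 CPM to 12.2, 14.1 and 14.7 CPM, a log2 fold change of 1.31 (named after its value was seen).

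Promoters of the members were searched for the core of the antioxidant response element, TGACNNNGC, on both strands, with no overlap with another searched motif. The windows ran from 250 bases before to 50 bases after each RefSeq start site (GRCm38.p6). Of 57 members with a promoter in the table, 12 held the core in at least 1 window (21.1%), against 14.0% of all genes with a promoter and 12.4% of all windows. It was found in 2 of 11 higher members, 6 of 21 lower members and 4 of 19 members that did not pass. The matches in higher and lower members are shown for comparison, with the core in capitals (5′ to 3′ along the gene, so that a core on the opposite strand reads GCNNNGTCA).
Gclm (higher, chr3:122245413-122245441, plus strand): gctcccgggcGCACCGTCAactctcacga
Mgst1 (higher, chr6:138140461-138140489, plus strand): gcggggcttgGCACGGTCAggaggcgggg
Txnrd1 (lower, chr10:82859104-82859132, plus strand): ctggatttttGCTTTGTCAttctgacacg
G6pdx (lower, chrX:74428919-74428947, minus strand): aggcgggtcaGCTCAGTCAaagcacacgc
Pgd (lower, chr4:149166061-149166089, minus strand): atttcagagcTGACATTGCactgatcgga
Prdx1 (lower, chr4:116685456-116685484, plus strand): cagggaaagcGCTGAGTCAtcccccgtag
Sod1 (lower, chr16:90220696-90220724, plus strand): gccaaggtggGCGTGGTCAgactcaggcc
Gsta3 (lower, chr1:21240454-21240482, plus strand): aactcaggcaTGACATTGCatttttcttc
A match is a description of these letters and not a binding site, and enhancers outside the windows were not searched. The 250 bases before the start sites of Gclm and Txnrd1, which hold the core and differed in opposite directions, read as follows.
Gclm (chr3:122245307-122245556, plus strand): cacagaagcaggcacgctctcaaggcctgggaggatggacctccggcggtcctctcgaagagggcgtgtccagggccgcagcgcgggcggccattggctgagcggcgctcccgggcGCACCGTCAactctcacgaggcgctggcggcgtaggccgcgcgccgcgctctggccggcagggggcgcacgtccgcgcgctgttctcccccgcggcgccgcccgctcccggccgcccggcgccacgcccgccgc
Txnrd1 (chr10:82858956-82859205, plus strand): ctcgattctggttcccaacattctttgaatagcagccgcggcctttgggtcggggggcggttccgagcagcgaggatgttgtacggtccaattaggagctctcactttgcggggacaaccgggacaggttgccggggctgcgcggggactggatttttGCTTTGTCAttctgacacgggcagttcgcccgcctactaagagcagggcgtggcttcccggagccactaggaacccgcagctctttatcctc

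The 4 members of the pentose phosphate pathway were each lower, where 30.6% of protein-coding genes tested were lower, and the calls of G6pdx, Tkt and Taldo1 each ended in at least 1 alternative. G6pdx, which commits glucose-6-phosphate to the pathway and makes the first NADPH, was at 60.8, 62.1 and 58.4 CPM in control and 48.5, 47.0 and 48.5 CPM after AMI-5 (log2 change -0.33; SE 0.056; adjusted p = 0.000338). Pgd, which makes the second NADPH (ENSMUSG00000028961, chromosome 4, 149149991 to 149166771, mm10), was at 192, 191 and 197 CPM in control and 133, 122 and 134 CPM after AMI-5 (log2 change -0.58; SE 0.057; adjusted p = 4.96e-06). Neither gene had overlapping groups. Removing trends over all genes ended the G6pdx call (-0.12; adjusted p = 0.0993). By contrast, Pgd stayed lower in all 18 alternatives, at -0.51 to -0.67. Transketolase, Tkt, was at 403, 375 and 363 CPM in control and 333, 309 and 313 CPM after AMI-5 (-0.26, adjusted p = 0.00303). Removing GC and length trends ended its call, over unique-sequence genes (-0.078) or over all genes (-0.082). Transaldolase, Taldo1, was at 167, 157 and 146 CPM in control and 145, 132 and 136 CPM after AMI-5, so that the groups nearly touched (-0.19, adjusted p = 0.0268). Of 17 alternatives, 9 ended this call, such as those without control library 1 (-0.14) or 2 (-0.19), without AMI-5 library 2 (-0.13) or 3 (-0.16), and over protein-coding genes only (-0.14).

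Of 16 other tested enzymes of NADPH supply and the pentose phosphate pathway, 4 were higher and 6 lower (median log2 change 0.024). Aldh1l2, a mitochondrial folate enzyme that makes NADPH, was at 25.8, 29.0 and 20.2 CPM in control and 86.1, 101 and 96.4 CPM after AMI-5, or 1.92 in log2 terms (SE 0.12, adjusted p = 1.52e-06). Mthfd2, a mitochondrial folate dehydrogenase, was at 0.74, and H6pd, the pentose phosphate dehydrogenase of the endoplasmic reticulum, at 0.37. Of the pathway's other enzymes (named after their values were seen), the epimerase Rpe was higher, at 0.42, and the isomerase Rpia and the lactonase Pgls were lower, at -0.36 and -0.31.

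Thioredoxin was lower, as was its cytosolic reductase Txnrd1. Txn1, the cytosolic thioredoxin, was at 211, 198 and 191 CPM in control and 145, 135 and 137 CPM after AMI-5 (log2 change -0.52; SE 0.058; adjusted p = 1.32e-05). It stayed lower when summed with its pseudogene (-0.42, adjusted p = 6.73e-05 in edgeR). Glrx5, a mitochondrial glutaredoxin of iron-sulfur cluster assembly, was at 50.3, 47.7 and 50.8 CPM in control and 36.5, 32.4 and 35.7 CPM after AMI-5 (-0.51, adjusted p = 6.16e-05). Txnrd3, the thioredoxin and glutathione reductase best known from testis, was the higher member of the group. It was at 7.98, 8.82 and 9.25 CPM in control and 13.1, 11.5 and 11.6 CPM after AMI-5, a log2 fold change of 0.48 (adjusted p = 0.00385). Txn2, the mitochondrial thioredoxin, was lower by a small step (-0.19, adjusted p = 0.0369), a call that ended in 13 of 18 alternatives. Txnrd2, Glrx, Glrx2 and Glrx3 did not pass, at log2 fold changes of -0.17 to 0.17. Glrx passed as higher in 5 of 18 alternatives and turned sign in 1, to -1.12. Glrx3 passed as lower in 4 of 17. Txnip, which binds and inhibits thioredoxin, rose by 0.61 on the log2 scale, from 509, 518 and 461 CPM to 759, 745 and 759 CPM. Among 23 other thioredoxin-fold and repair proteins, Txnip included, 8 were higher and 3 lower. Tmx3, a disulfide isomerase of the endoplasmic reticulum membrane, was at 0.79, and Tmx2 at -0.41 with 26.3% of its 50-mers shared.

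**Figure D5:**
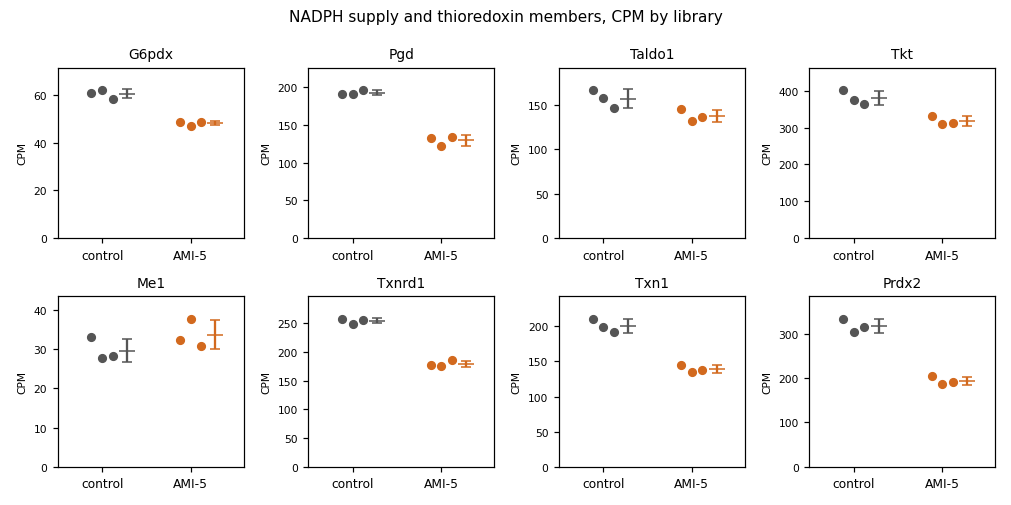
CPM (y axis, from 0) of 5 NADPH enzymes and of Txnrd1, Txn1 and Prdx2 in each control (grey) and AMI-5 (orange) library, with mean and SD (n = 3) beside the points. All shown were lower with AMI-5 without overlap except Me1, whose groups overlapped.

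Of the 7 peroxiredoxin and sulfiredoxin genes, 2 were lower and 1 higher (28.6% and 14.3%), beside 30.6% and 20.1% of protein-coding genes tested. Prdx2, the cytosolic peroxiredoxin that is abundant in red cells, was at 334, 303 and 316 CPM in control and 204, 187 and 191 CPM after AMI-5 (log2 change -0.71; SE 0.060; adjusted p = 1.12e-06), and stayed lower when summed with its pseudogene (-0.39). The summed erythroid markers given above were higher in the same libraries, while Prdx2 was lower, and their part in it was not tested. Prdx1, the other cytosolic form, was at 274, 255 and 261 CPM in control and 213, 197 and 204 CPM after AMI-5, with the opposite sign when its copies were added. Prdx4, the peroxiredoxin of the endoplasmic reticulum, was at 121, 117 and 100.4 CPM in control and 150.1, 123 and 133 CPM after AMI-5. Its groups lay close, and the rise (0.26, adjusted p = 0.0262) lost its call without control library 3 (0.18, adjusted p = 0.0885), without AMI-5 library 1 (0.20, adjusted p = 0.0717) with totals-only scaling (0.17, adjusted p = 0.0831) or with trends removed over unique-sequence genes (0.15, adjusted p = 0.131), and the sign turned with all-gene GC and length trends removed (-0.12). The mitochondrial Prdx3 and the forms Prdx5 and Prdx6 did not pass, at 0.19, -0.065 and 0.016. Prdx3 passed as higher in 6 of 18 alternatives and turned to -0.98 with trends removed over all genes.

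Of 6 tested glutathione peroxidases, 4 were lower and 1 higher, beside 30.6% lower and 20.1% higher among protein-coding genes tested. The 4 include Gpx4, described above, which was at 0.76 once its pseudogene was counted. Gpx1, the main cytosolic selenoenzyme, was at 180.1, 150.4 and 159 CPM in control and 141, 132 and 141 CPM after AMI-5 (-0.24, adjusted p = 0.0113), and lost its call without control library 1 (-0.17, adjusted p = 0.0529) or AMI-5 library 2 (-0.19, adjusted p = 0.0594) and with trends removed over unique-sequence genes (-0.073). Gpx2, the gastrointestinal form, was at 20.0, 18.7 and 27.1 CPM in control and 13.8, 12.9 and 14.5 CPM after AMI-5, lower in every AMI-5 library (-0.67, SE 0.13, adjusted p = 0.00125). Gpx7, a peroxidase of the endoplasmic reticulum that carries cysteine in place of selenocysteine, was at 17.8, 15.7 and 15.5 CPM in control and 12.7, 12.3 and 10.9 CPM after AMI-5 (-0.45, adjusted p = 0.00356). Gpx8, its close relative in the same compartment, did not pass (0.11, 95% interval -0.070 to 0.29), and its sign turned in both removals of GC and length trends, to -1.76 over all genes. Gpx3, the secreted form, was at 120.4, 108 and 103 CPM in control and 139, 116 and 130.4 CPM after AMI-5. Its groups overlapped, and the rise of 0.22 (adjusted p = 0.0358) lost its call without control library 2 (0.20) or 3 (0.17) and without AMI-5 library 1 (0.17) or 3 (0.23) and with totals-only scaling (0.13), and turned to -0.11 with trends removed over all genes. Gpx5 and Gpx6 had 0 reads in controls and 1 and 2 reads in all with AMI-5.

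Glutathione S-transferases, the largest role with 25 members, went in both directions. Of 21 tested, 8 were higher and 5 lower (median log2 change 0.15). That is 38.1% and 23.8%, beside 20.1% higher and 30.6% lower among protein-coding genes tested. Per kilobase of exon, Gstm1 and Gstp1 had the highest levels of the role in controls, at 169 and 108 CPM per kilobase. Gstm1, a mu-class enzyme (ENSMUSG00000058135, chromosome 3, 108012255 to 108017973, mm10), was at 248, 264 and 234 CPM in control and 135, 112 and 137 CPM after AMI-5. It fell without overlap, 1.94-fold lower (log2 change -0.96; SE 0.081; adjusted p = 1.86e-06). Its sequence is shared in part (18.9% of 50-mers). Summed with Gstm3, Gstm6 and 3 pseudogenes it remained lower, at -0.56 (SE 0.082, adjusted p = 0.000157 in edgeR). Of its 6 neighbours in the cluster on chromosome 3, Gstm2 was higher (0.30) and Gstm6 lower (-1.24), and Gstm3, Gstm4, Gstm5 and Gstm7 did not pass, at -0.22 to 0.15. The Gstm2 call ended without control library 1 or 3, without AMI-5 library 1 and with totals-only scaling, and the Gstm6 call, at 7 to 21 reads per library, ended in 6 of 16 alternatives.

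Outside the mu class, Gsto1, an omega-class thioltransferase, rose and shares no 50-mer with another gene. It was at 32.9, 34.2 and 32.2 CPM in control and 52.6, 49.6 and 48.8 CPM after AMI-5, 1.52-fold higher (log2 change 0.61; SE 0.064; adjusted p = 9.13e-06), and stayed higher in all 18 alternatives. Mgst1, the microsomal transferase, was at 98.2, 85.8 and 82.8 CPM in control and 125, 113 and 115 CPM after AMI-5 (0.40, SE 0.073, adjusted p = 0.000621), and it turned to -0.15 with trends removed over all genes. The theta-class Gstt2 and Gstt3, the mitochondrial Gstk1 and the zeta-class Gstz1, which also breaks down tyrosine, were higher by 0.34, 0.54, 0.55 and 0.17. The Gstk1 call ended without control library 2 or AMI-5 library 1, the Gstz1 call without control library 1 or 3, with totals-only scaling and with trends removed over unique-sequence genes, and the Gstt2 call without control library 3. With trends removed over all genes, Gstk1, Gstz1, Gstt2 and Gstm2 turned to -0.42, -0.70, -0.78 and -0.36. Mgst3 (-0.41) and the alpha-class Gsta3 (-0.32) were lower, both in all 18 alternatives. Gsta4, which detoxifies hydroxynonenal, did not pass (0.049, 95% interval -0.16 to 0.26). Its sign turned in 4 of 18 alternatives, to -1.24 with trends removed over all genes.

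Gstp2 had 4, 7 and 1 reads in controls and 182, 145 and 165 reads with AMI-5, or 4.55 in log2 terms (SE 0.33, adjusted p = 2.97e-07). Of the reads given to Gstp1 or Gstp2, Gstp2 held 0.367%, 0.615% and 0.0972% in controls and 13.0%, 11.1% and 11.1% with AMI-5. Since 54.3% of its 50-mers lie in other genes and its pseudogene moved alike, from 37, 26 and 40 reads to 1456, 1511 and 1644, the value is uncertain. Gstp3, which shares no 50-mer with another gene, had 1, 0 and 3 reads in controls and 10, 71 and 8 reads with AMI-5, and did not pass the filter. Its high library is AMI-5 library 2, where the liver markers given above were high, and their part in the value was not tested.

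Of the 4 superoxide and hydrogen peroxide enzymes, 1 was lower and 0 higher, where 30.6% of protein-coding genes tested were lower and 20.1% higher. Sod1, the cytosolic copper-zinc superoxide dismutase, had the highest level per kilobase of all members in controls, at 214 CPM per kilobase. It was at 146, 131 and 138 CPM in control and 92.3, 88.1 and 84.6 CPM after AMI-5 (log2 change -0.64; SE 0.062; adjusted p = 3.66e-06). Summed with its pseudogene Gm8566 it was at -0.15 and did not pass (adjusted p = 0.0635 in edgeR). Sod2, the mitochondrial form, was at 0.15 (adjusted p = 0.0889; 21.0% of its 50-mers shared), and the secreted Sod3 at -0.31 (adjusted p = 0.0990). Sod2 passed as higher in 5 of 17 alternatives and turned sign in 2, and Sod3 passed as lower in 2 of 18. Catalase, Cat, was at 108, 116 and 101 CPM in control and 109.8, 106 and 106 CPM after AMI-5, a difference within the spread (-0.011, 95% interval -0.15 to 0.13).

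Of 24 tested genes that break glutathione down or use it elsewhere, 8 were higher and 3 lower (median log2 change 0.12). Chac1, which cleaves glutathione in the cytosol and is a known target of the amino acid stress response, was at 19.7, 18.3 and 12.7 CPM in control and 37.0, 37.9 and 34.2 CPM after AMI-5 (1.11, SE 0.13, adjusted p = 7.18e-05). Ggt1, which cleaves glutathione outside the cell, was at 37.7, 34.7 and 32.4 CPM in control and 63.6, 55.7 and 56.6 CPM after AMI-5 (0.75, SE 0.076, adjusted p = 6.54e-06). Esd, a hydrolase of formylglutathione, was at -0.36. For both cleaving enzymes every AMI-5 library was above every control.

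Of 22 tested genes of selenoprotein synthesis and other selenoproteins, which share their selenium supply with the Gpx and Txnrd members, 5 were higher and 4 lower. Selenop, the secreted selenium carrier, was at 381, 397 and 293 CPM in control and 729, 705 and 657 CPM after AMI-5 (0.97, SE 0.11, adjusted p = 7.69e-05). Sepsecs, which makes the selenocysteine tRNA, was at 0.56, and Selenoh, a nuclear selenoprotein, at -0.72. The 3 libraries of each group did not overlap for Selenop.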

How the data were processed

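Sequencing covered 3 control and 3 AMI-5 libraries of embryonic pancreas RNA. The deposited table holds raw read counts per gene, not normalized, and its name gives mm10 and Ensembl release 87. The authors' tools, per the submitters' processing notes, included GSNAP 2018-05-30, featureCounts 1.6.2 and bcl2fastq 2.19.1. For the strand setting and for reads that fit several places, the choice is not given in the sources used here. In all, 92 spike-in entries held 1 read and were left out. Symbols and classes came from GENCODE M21 (mm10), which matched 49326 genes. A gene's shared sequence is the percent of the 50-mers of its transcripts, sense strand, found in another annotated gene.

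All genes were fitted in R 4.3.3 with edgeR 4.0.16 (TMM, filterByExpr, robust dispersion and quasi-likelihood fit, two-sided F test, group as the only term), with Benjamini-Hochberg adjustment over 17519 genes. The biological coefficient of variation common to all genes was 9.65%. A positive log2 fold change means higher after AMI-5; SE and 95% intervals come from that fit. CPM values, and CPM per kilobase, were computed from the deposited counts and exon lengths. Members and gene lists were chosen with earlier results of these data known. Values per library are given for 9 classical antioxidant members and, per role, for up to 4 called members with the smallest p and 2 with the largest mean. From each other list, up to 3 called genes are named, with Nfe2l2 and Keap1. Copies of a member are other members or pseudogenes that hold at least 2% of its 50-mers, a pseudogene only if the coding gene it shares most with is a member. The processed pseudogenes Gm7049, Gm17823 and AC122253.3, which share sequence with Me1, Taldo1 and Gpx4, were not used here. No counts of their own were available to add, and whether reads fell on them could not be seen. Alternatives covered scaling, filter, DESeq2 1.42.0, limma 3.58.1, a replicate block, each library left out, gene subsets, GC and length trends and equal depth.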

Additional observations from a re-analysis of the deposited data

How the results depend on the processing

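Of the 34 called members, 18 kept their direction and call in every one of the 18 alternatives that gave them a value, 4 higher and 14 lower. Sums with copies were not among these alternatives. Of the 14 lower members, Gpx4, Gstp1 and Prdx1 turned sign when summed with copies, and Sod1 no longer passed (-0.15). The 4 higher members include Gstp2, whose value is uncertain. With each library left out, 9 to 17 members were higher and 16 to 22 lower. Removing GC and length trends over all genes, processed pseudogenes among them, gave 5 higher and 32 lower, and removal over unique-sequence genes gave 11 and 19. Over unique-sequence genes alone, where 43 members were tested, 11 were lower, and 13 of these 43 were lower in the fit over all genes; fewer members were tested there. No count of calls in the 6 gene lists moved by over 1.5 times in the alternatives run for them. Those left out removal of trends over all genes, the alternative that changed the member counts most. Upper-quartile scaling, no filter, the DESeq2 and limma tests, unique-sequence genes alone and equal depth were also not run for the lists. Removal over all genes turned the sign of 20 of 58 members, and 3 of the 20 were called members that passed in the new direction. Among the 20, it turned Gpx3 to -0.11, Mgst1 to -0.15, Prdx4 to -0.12, Gclc to -0.0087 and Me1 to -0.016. It turned others further, such as Gpx8 to -1.76, Gsta4 to -1.24 and Prdx3 to -0.98. Without a change of sign it moved Sod1 to -2.94, Gstp1 to -2.38, Gpx2 to -2.29, Txn1 to -2.20, Glrx5 to -2.15, Mgst3 to -1.87, Gstm1 to -1.81, Gpx7 to -1.46, Gstm5 to -1.43, Gstm3 to -1.31, Nqo1 to -1.21 and Gpx1 to -0.95. Totals-only scaling turned Gclc to -0.035 and moved the median of all genes tested to -0.094; no filter moved it to 0.14. Summing with copies turned Gpx4 to 0.76, Gstp1 (with Gstp2) to 0.61 and Prdx1 to 0.22. Cat, which was never called, was at 0.010 with DESeq2 size factors and with DESeq2, 0.036 with upper-quartile scaling, 0.0080 with no filter, -0.063 to 0.035 with each library left out, 0.041 over protein-coding genes and 0.048 over unique-sequence genes. The cause of these changes was not tested, beyond what the sum itself adds. Same-numbered libraries shared only a number (correlations of their deviations -0.058, -0.038 and -0.048), and 0 of 6 libraries correlated best with their own number. With the replicate number as a block, 14 members were higher and 21 lower, and none of the 34 calls was lost. Depth limits what can be said of members with few reads per library, such as Nqo1, Gsto2, Mgst2 and Gstm6, and of the 6 that did not pass the filter.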
